A study of Mus musculus with 3 samples.

Results

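Lysosomes are acidic organelles in which hydrolases break down protein, sugar chains and lipids, and a membrane proton pump, the vacuolar ATPase, keeps them acid. Many of their genes carry short promoter elements, named CLEAR, that bind the transcription factor Tfeb. In dendritic cells, lysosomal proteases cut the antigen that is loaded on MHC class II, and maturing cells are known to change how acid and how proteolytic these compartments are.

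The genes described here are 36 lysosome genes taken from a fixed list of enzymes, membrane proteins, proton pump subunits and Tfeb. Each was read through the brightest probe set that the platform annotation pairs with that gene alone. This gave 35 of the 36, among 18193 genes so paired on the arrays. Cd63, a tetraspanin of lysosome membranes, had no such probe set and was not analysed here.

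Mouse bone marrow cells were grown for 10 days in GM-CSF at 10 ng/ml, which gives bone marrow-derived dendritic cells together with other myeloid cells. A first culture received lipopolysaccharide (LPS, a bacterial outer membrane component, at 10 ng/ml) plus 100 µM 8-Br-cAMP, a cell-permeable analogue of cyclic AMP, for 3 h. Another received LPS alone for 3 h, and the last was left unstimulated. The labels name no strain, age or number of mice. With 1 array per condition, differences could not be set against replicates and no p-value is given. Fewer cells of a type and less RNA per cell cannot be told apart in such bulk RNA.

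Signals were scaled so that the 3 arrays shared a common trimmed mean, and those under 32.5, the floor, were set to it. As deposited, trimmed means were 63.2 with LPS+8-Br-cAMP, 111 with LPS and 135 for unstimulated cells, so the LPS+8-Br-cAMP array was scaled up most. All 35 genes were above the floor on all 3 arrays, the dimmest at 2.32 times the floor. Differences are in log2 units and 2-fold is 1 unit. The scatter between probe sets of the same gene gave an error for 1 probe set of 0.45 for LPS against unstimulated cells, 0.48 for LPS+8-Br-cAMP against LPS and 0.57 for LPS+8-Br-cAMP against unstimulated cells. This error says nothing of the spread between cultures.

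Dendritic cell markers were above the floor on every array, 13 of 13, with summed scaled signals of 52493 with LPS+8-Br-cAMP, 40839 with LPS and 33358 in unstimulated cells. All 11 macrophage markers measured were also above it, with sums of 66890 with LPS+8-Br-cAMP, 53560 with LPS and 46636 in unstimulated cells. Scaling multiplied the arrays by 1.63 with LPS+8-Br-cAMP, 0.929 with LPS and 0.763 unstimulated. The rising order of the dendritic cell and macrophage sums rests on these factors, and bright genes weigh most in a sum. Markers of granulocytes, 11 of 11 above the floor, summed to 23850 with LPS+8-Br-cAMP, 45044 with LPS and 42703 in unstimulated cells. Transcripts of sex differed as well: Xist read 1716 with LPS+8-Br-cAMP, against 8.08 with LPS and 32.3 in unstimulated cells. The Y-linked gene Eif2s3y read 1.24 with LPS+8-Br-cAMP, against 272 with LPS and 352 in unstimulated cells. The LPS+8-Br-cAMP culture therefore differed from both others in more than its treatment, and these differences and the treatment cannot be told apart.

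Promoters of 30 of the genes were in the RefSeq promoter table (GRCm38.p6, 250 bases before to 50 after each start), which holds 35 windows for them. The E-box core CACGTG, the same on both strands, lay in 11 of these 35 windows (31.4%) and in 7.15% of all 32851 windows. TCACGTGA, the core of the CLEAR element, which contains CACGTG, lay in 6 of the 35 (17.1%) and in 0.974% of all windows. The cAMP response element TGACGTCA lay in 1, that of Gusb (2.86%), and in 1.79% of all. A match describes letters only. The stretches below show such elements before the start of 8 of the genes, 5′ to 3′ on the gene's strand, with each CACGTG, or TCACGTGA where whole, in capitals. They are shown because they are what Tfeb is known to bind. Ctsl and Gaa also have the core alone before the start and are not shown.

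The membrane protein gene Lamp1 has 4 such cores within 86 bases on the plus strand at chr8:13159075-13159160. Gla, on the minus strand of the X chromosome at chrX:134601169-134601255, has 2 whole TCACGTGA elements. Mcoln1 (chr8:3500423-3500504, plus), Ctsa (chr2:164833736-164833772, plus), Ctsd (chr7:142387895-142387950, minus) and Atp6v1a (chr16:44139360-44139415, minus) each have 1 whole element in the stretch shown. Glb1 (chr9:114401005-114401060, plus) and Lgmn (chr12:102439111-102439166, minus) have the core alone.
Lamp1: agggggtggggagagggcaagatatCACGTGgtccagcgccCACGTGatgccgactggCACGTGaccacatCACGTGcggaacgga
Gla: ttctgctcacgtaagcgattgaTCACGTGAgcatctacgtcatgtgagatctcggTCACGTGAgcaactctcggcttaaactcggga
Mcoln1: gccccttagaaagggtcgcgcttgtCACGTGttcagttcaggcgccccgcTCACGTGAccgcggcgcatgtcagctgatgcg
Ctsa: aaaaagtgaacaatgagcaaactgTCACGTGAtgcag
Ctsd: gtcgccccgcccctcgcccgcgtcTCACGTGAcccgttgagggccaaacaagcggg
Atp6v1a: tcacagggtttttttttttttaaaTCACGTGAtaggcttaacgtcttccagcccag
Glb1: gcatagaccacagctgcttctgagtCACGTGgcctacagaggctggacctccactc
Lgmn: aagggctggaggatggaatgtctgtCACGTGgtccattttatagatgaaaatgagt

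The first comparison sets 3 h of LPS against unstimulated cells. Of the 35 lysosome genes 27 (77.1%) were below 0 with LPS, where 61.8% of all measured genes were at or below 0. Under all 5 scalings tried 24 of the 27 stayed below 0. Apart from quantile normalization, the other scalings shift every gene alike except at the floor, so this count is a weak check. It was not made over all genes. The median difference of the 35 was -0.38, against -0.21 for all 12283 genes measured, a gap of -0.17. At least 2-fold lower were 4 of the 35 (11.4%), a share near the 13.0% of all measured genes that were. They were Manba, Atp6v0d2, Tfeb and Glb1. None of the 35 was at least 2-fold higher, where 6.64% of all genes were. Of the 35, 22 lay within the error of 1 probe set of 0, 12 were lower by more than that error and 1, Ctsc, was higher by more.

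The second comparison sets LPS+8-Br-cAMP against LPS and shares the LPS array with the first. Here the genes divided nearly evenly, 17 above 0 and 18 below, but 19 of the 35 changed sign over the scalings. Their median was -0.07, against 0.05 for all 12572 genes measured, a gap of -0.12. Npc2 alone was at least 2-fold higher (2.86%, against 6.49% of all genes), and Ctsk alone was at least 2-fold lower (2.86%, against 5.81%). By more than the error of 1 probe set, 5 of the 35 were higher, Npc2 included, and 8 were lower, Ctsk included.

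The third comparison, LPS+8-Br-cAMP against unstimulated cells, shares an array with each of the others. Below 0 were 28 of 35, where 56.2% of all genes were at or below 0. Under all 5 scalings 27 of the 28 stayed below 0, which is a weak check for the reason given with LPS. The lysosome genes had a median of -0.43 against -0.12 for all 12793 genes measured. At least 2-fold lower were Atp6v0d2, Manba, Gusb, Lgmn and Ctsk, 5 of 35 (14.3%, against 15.8% of all genes). At least 2-fold higher were Npc2 and Ctsc (5.71%, against 9.36%).

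**Figure D1:**
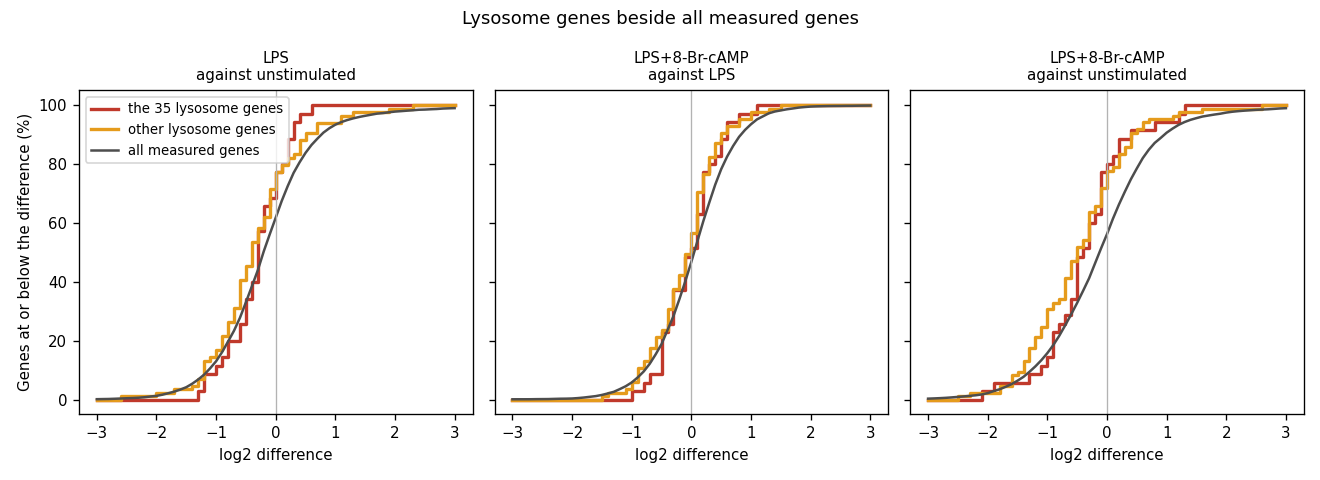
Cumulative share of genes (percent, vertical axis) at or below each log2 difference (horizontal axis) in the 3 comparisons, for the 35 lysosome genes, other lysosome genes and all measured genes. With LPS against unstimulated cells the lysosome genes end by 0.53, where the line of all genes runs on to the right. In the LPS+8-Br-cAMP against LPS panel the 35 stand at 51.4% at 0, other lysosome genes at 56.5% and all genes at 46.8%. At a difference of 0.2 the shares are 77.1%, 76.5% and 60.6% in the same order.

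Among the glycosidases, which strip sugars from glycoproteins and glycolipids, all 7 were below 0 with LPS by a median of -0.59, or -0.38 relative to all genes. Gla was level (-0.00083) and took either sign over the scalings. Manba, the beta-mannosidase, read 87.5 with LPS+8-Br-cAMP, 132 with LPS and 345 in unstimulated cells. It was 2.63-fold lower with LPS than unstimulated, and differed by -0.59 between LPS+8-Br-cAMP and LPS. The unstimulated array was thus the highest of the 3 for Manba, and its differences kept their sign under every scaling.

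Glb1, the beta-galactosidase, read 230 with LPS+8-Br-cAMP, 173 with LPS and 348 unstimulated, 2.01-fold lower with LPS and short of 2-fold under at least 1 other scaling (-0.91). With LPS+8-Br-cAMP it was 0.41 above LPS, but -0.40 with signals as deposited. Gusb, the beta-glucuronidase, read 462 with LPS+8-Br-cAMP, 594 with LPS and 1161 unstimulated. It was just short of 2-fold lower with LPS (-0.97, and -1.23 by its second probe set), and 2.51-fold lower with LPS+8-Br-cAMP than unstimulated.

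Gla, the alpha-galactosidase A, went another way. It read 764 with LPS+8-Br-cAMP, against 447 with LPS and 447 in unstimulated cells, 0.78 above LPS (-0.03 with signals as deposited). Its second probe set read 179 with LPS+8-Br-cAMP, 110 with LPS and 70.7 unstimulated, so both were highest with LPS+8-Br-cAMP. A dimmer one lay under the floor on every array.

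Man2b1, the lysosomal alpha-mannosidase, read 2538 with LPS+8-Br-cAMP, 2721 with LPS and 4083 unstimulated, a difference of -0.59 with LPS. Its dimmer probe set read 30.8 with LPS+8-Br-cAMP, under the floor, 64.5 with LPS and 350 unstimulated, a difference of -2.44 with LPS. Both probe sets were highest in unstimulated cells, but by very different amounts. Hexa, the alpha chain of beta-hexosaminidase A, read 2123 with LPS+8-Br-cAMP, 2063 with LPS and 3021 unstimulated. Gaa, which degrades glycogen, read 191 with LPS+8-Br-cAMP, 175 with LPS and 218 unstimulated. For both, the unstimulated array was again the highest of the 3, by -0.55 and -0.31 with LPS.

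**Figure D2:**
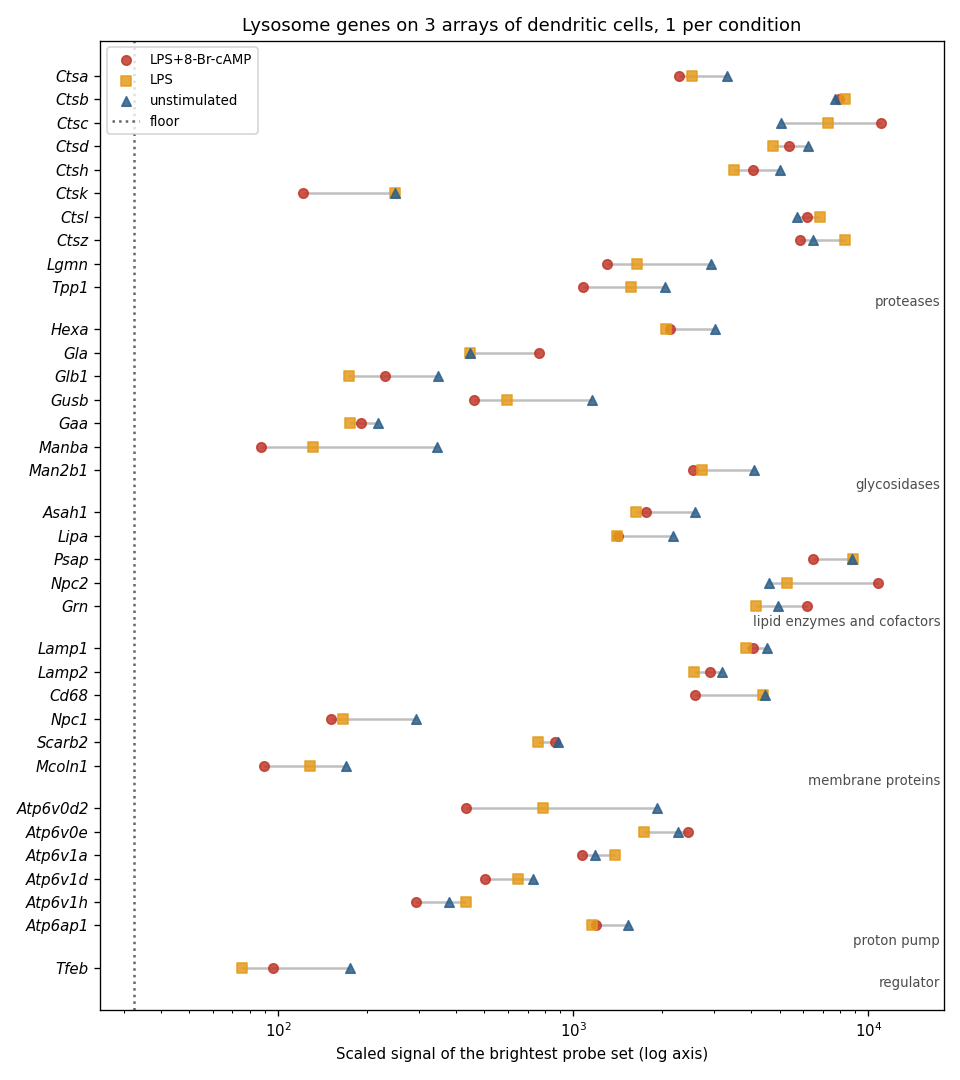
Scaled signal (log axis) of the brightest probe set of each of the 35 lysosome genes on the LPS+8-Br-cAMP, LPS and unstimulated arrays, 1 array each, grouped by role, with the floor dotted. Positions of different genes cannot be compared, since probe sets differ in brightness; Atp6v0d2 and Manba have the longest lines, and unstimulated cells at their upper end.

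The proteases, in which enzymes that cut antigen are found, had a median of -0.20 with LPS, 0.01 from that of all genes. Past 2-fold were 0 of 10, where 13.0% of all genes were lower and 6.64% higher, so 0 of so few says little. Lgmn, the asparaginyl endopeptidase, read 1303 with LPS+8-Br-cAMP, 1641 with LPS and 2923 unstimulated. It differed by -0.83 with LPS and was 2.24-fold lower with LPS+8-Br-cAMP than unstimulated. Tpp1, a tripeptidyl peptidase, read 1075 with LPS+8-Br-cAMP, 1565 with LPS and 2051 unstimulated. Its second probe set had the same order, with a difference of -1.37 between LPS+8-Br-cAMP and unstimulated cells against -0.93 by the brightest.

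Ctsk, the collagen-degrading cathepsin best known from osteoclasts, read 122 with LPS+8-Br-cAMP, against 248 with LPS and 250 unstimulated. It differed by -1.03 between LPS+8-Br-cAMP and LPS, and its range over the scalings was -1.84 to -0.89. It has 1 probe set paired with it alone, so no second reading was available. Of other osteoclast markers, Calcr and Ocstamp were under the floor on all 3 arrays. Itgb3 read 45.7 with LPS+8-Br-cAMP, 213 with LPS and 134 unstimulated, while Dcstamp read 3588 with LPS+8-Br-cAMP, 1718 with LPS and 337 unstimulated. The list of 9, 7 of them measured, had a median of -0.09 between LPS+8-Br-cAMP and LPS. It summed to 5392 with LPS+8-Br-cAMP, 3733 with LPS and 2202 unstimulated, an order that also rests on the scaling. Its part in the Ctsk difference was not tested.

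Ctsc, the dipeptidyl peptidase that activates granule serine proteases, was the gene whose probe sets spread most widely with LPS against unstimulated cells. The brightest read 11014 with LPS+8-Br-cAMP, 7310 with LPS and 5049 unstimulated, a difference of 0.53 with LPS and a further 0.59 with LPS+8-Br-cAMP (-0.22 with signals as deposited). Another read 779 with LPS+8-Br-cAMP, 1253 with LPS and 159 unstimulated. The dimmest read 425 with LPS+8-Br-cAMP, 627 with LPS and 95.9 unstimulated. With LPS all of them were higher, by 0.53, 2.98 and 2.71, so the size is unsettled. Between LPS+8-Br-cAMP and LPS they disagreed in direction, at 0.59, -0.69 and -0.56. Granulocytes, which also use this enzyme, had markers with a median of -1.16 in that comparison, and their part was not tested.

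Other cathepsins differed less. Ctsb, a cysteine protease, read 7935 with LPS+8-Br-cAMP, 8338 with LPS and 7731 unstimulated, and its next probe set 7367 with LPS+8-Br-cAMP, 7719 with LPS and 7379 unstimulated. A dimmer probe set, however, read 636 with LPS+8-Br-cAMP, 1235 with LPS and 1654 unstimulated, and the next below it had the same order. The dimmest was highest with LPS, at 135, so the probe sets of Ctsb disagree on its order. Ctsl, a cysteine endopeptidase, read 6205 with LPS+8-Br-cAMP, 6831 with LPS and 5742 unstimulated. Ctsz, a carboxypeptidase, read 5849 with LPS+8-Br-cAMP, 8333 with LPS and 6500 unstimulated, with a difference of -0.51 between LPS+8-Br-cAMP and LPS by its brightest probe set and of -0.11 and -0.61 by the others.

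The aspartic protease Ctsd read 5380 with LPS+8-Br-cAMP, 4743 with LPS and 6218 unstimulated. The aminopeptidase Ctsh read 4049 with LPS+8-Br-cAMP, 3496 with LPS and 5020 unstimulated. Ctsa, a carboxypeptidase that also protects beta-galactosidase, read 2285 with LPS+8-Br-cAMP, 2529 with LPS and 3329 unstimulated. All of these were highest in unstimulated cells, and with LPS differed by -0.39, -0.52 and -0.40. The second probe set of Ctsa, under the floor with LPS, was at least 0.71 higher with LPS+8-Br-cAMP than with LPS, where the brightest differed by -0.15.

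Among the proteins that handle lipids, Npc2, a soluble carrier of cholesterol, stood out. It read 10754 with LPS+8-Br-cAMP, against 5276 with LPS and 4614 unstimulated, 2.04-fold above LPS. By its second probe set the readings were 7643 with LPS+8-Br-cAMP, 5956 with LPS and 4485 unstimulated, 0.36 above LPS. Those below it were 0.37 and 0.73 above LPS. All 4 probe sets were highest with LPS+8-Br-cAMP, but only the brightest passed 2-fold, and under quantile normalization, median scaling and with signals as deposited it no longer did.

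Npc1, the membrane protein that takes cholesterol on from Npc2, read 151 with LPS+8-Br-cAMP, 166 with LPS and 292 unstimulated. It differed by -0.82 with LPS and by -0.13 between LPS+8-Br-cAMP and LPS (0.0030 under spike scaling). Npc1 was thus highest in unstimulated cells and lowest with LPS+8-Br-cAMP, the reverse of Npc2. Lipa, the acid lipase that frees cholesterol from its esters, read 1415 with LPS+8-Br-cAMP, 1411 with LPS and 2182 unstimulated. With LPS its 3 probe sets differed by -0.63, -0.72 and -0.72.

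Asah1, the acid ceramidase, read 1759 with LPS+8-Br-cAMP, 1627 with LPS and 2590 unstimulated, a difference of -0.67 with LPS. Psap, the precursor of the saposins that help lipid hydrolases, read 6512 with LPS+8-Br-cAMP, 8842 with LPS and 8769 unstimulated. Between LPS+8-Br-cAMP and LPS it differed by -0.44, and by -0.70 by its second probe set. Grn, progranulin, read 6210 with LPS+8-Br-cAMP, 4171 with LPS and 4921 unstimulated. Its probe sets differed in direction between LPS+8-Br-cAMP and LPS, at 0.57, -0.09 and -0.65, so no direction can be given.

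The membrane proteins had a median of -0.28 with LPS, -0.07 from all genes, and 0 of 6 passed 2-fold in any of the 3 comparisons. Over all genes 5.81% to 15.8% were lower and 6.49% to 9.36% higher, so 0 of 6 says little. Cd68, a heavily glycosylated protein of macrophage lysosomes, read 2582 with LPS+8-Br-cAMP, against 4392 with LPS and 4466 unstimulated, a difference of -0.77 between LPS+8-Br-cAMP and LPS. Among macrophage markers in that comparison Adgre1 differed by -0.84, Mertk by -1.65 and C1qa by -0.83, while Mrc1 differed by 1.01 and Cd14 by 0.92. Their median was 0.14, and their part in the Cd68 difference was not tested.

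Lamp1, an abundant glycoprotein of the lysosome wall whose promoter holds the 4 cores shown, read 4068 with LPS+8-Br-cAMP, 3834 with LPS and 4544 unstimulated. Lamp2, its relative, read 2896 with LPS+8-Br-cAMP, 2571 with LPS and 3180 unstimulated, and its 4 probe sets ran from -0.31 to 0.43 with LPS. Neither differed by more than the error of 1 probe set in any comparison by its brightest probe set. Scarb2, the receptor that carries glucocerebrosidase to lysosomes, read 866 with LPS+8-Br-cAMP, 759 with LPS and 886 unstimulated. Mcoln1, the main cation channel of lysosomes, read 89.7 with LPS+8-Br-cAMP, 128 with LPS and 169 unstimulated, but its second probe set was nearly level, at -0.29 with LPS and 0.17 between LPS+8-Br-cAMP and LPS, and the dimmest was above the floor in unstimulated cells alone.

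**Figure D3:**
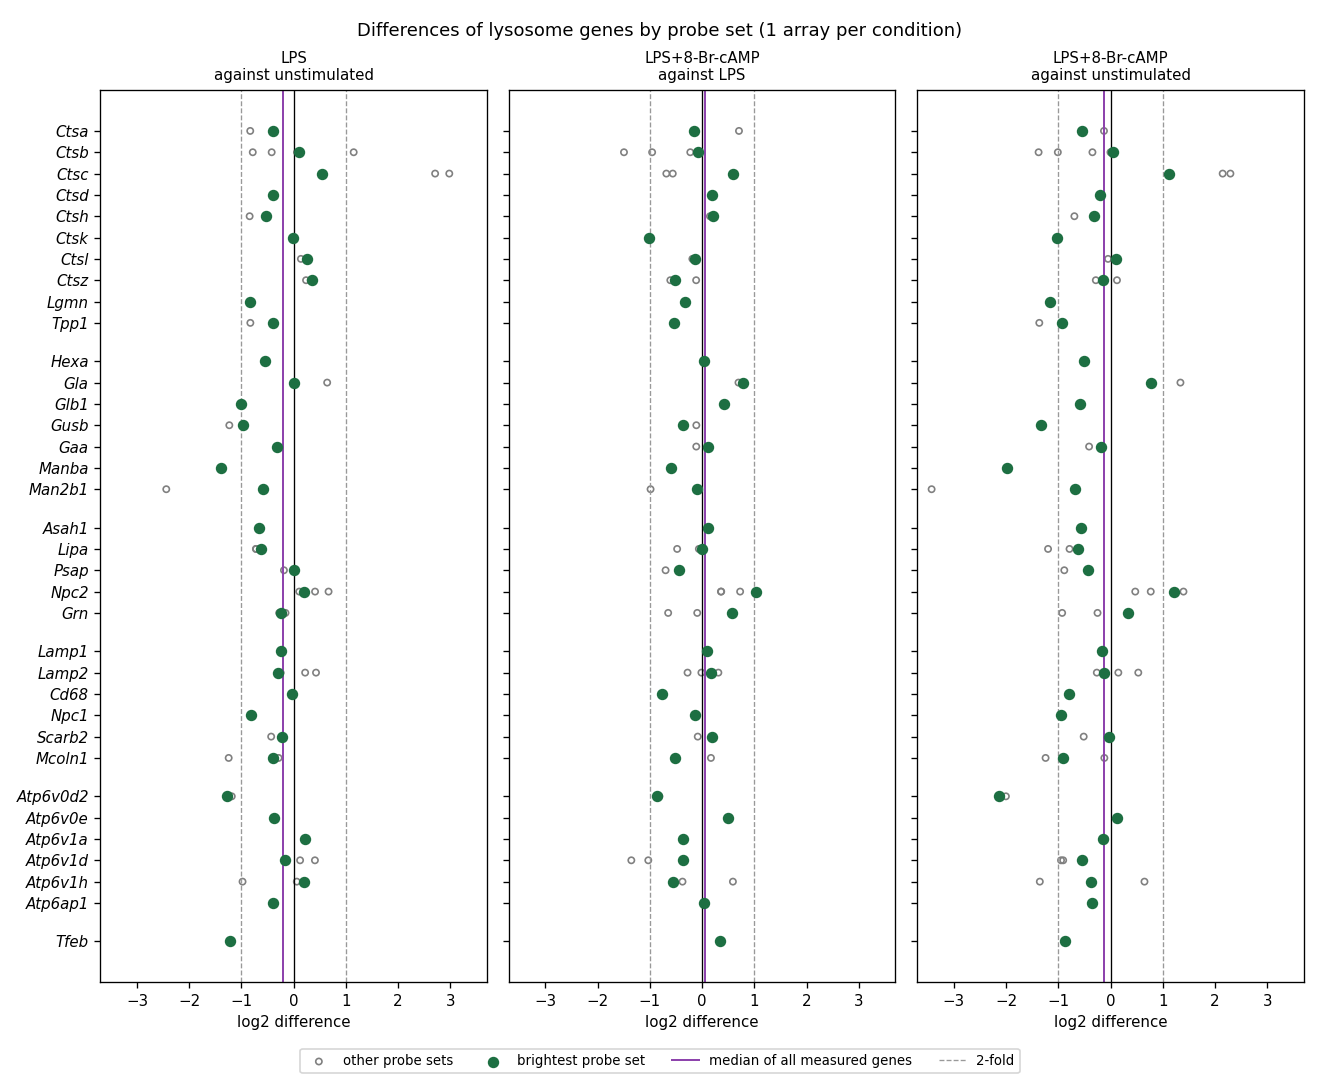
Log2 difference (horizontal axis) of each of the 35 lysosome genes in 3 comparisons, by the brightest probe set (filled) and every other measured probe set (open), with the median of all measured genes and 2-fold marked. Both probe sets of Atp6v0d2 lie near each other in all panels, while those of Ctsc, Man2b1 and Ctsb spread widely.

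The proton pump is built of a membrane sector and a cytosolic sector, each of several subunits. Atp6v0d2, the d2 subunit of the membrane sector, known for its part in osteoclasts and macrophages, had the largest differences of the 35 genes between LPS+8-Br-cAMP and unstimulated cells. It read 434 with LPS+8-Br-cAMP, 791 with LPS and 1918 unstimulated. It was 2.43-fold lower with LPS than unstimulated and 1.82-fold lower again with LPS+8-Br-cAMP than with LPS, in all 4.42-fold. Its second probe set read 371 with LPS+8-Br-cAMP, 655 with LPS and 1488 unstimulated, with differences of -1.19 and -0.82. The differences were below 0 under every scaling, from -1.61 to -1.21 with LPS and from -1.68 to -0.73 between LPS+8-Br-cAMP and LPS.

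Its paralog Atp6v0d1, the d subunit found in most tissues, read 965 with LPS+8-Br-cAMP, 848 with LPS and 1209 unstimulated, -0.51 with LPS and 0.19 between LPS+8-Br-cAMP and LPS. Other subunits on the list were closer to level. Atp6v1a, the catalytic A subunit, read 1074 with LPS+8-Br-cAMP, 1380 with LPS and 1182 unstimulated. Atp6v1h, a regulatory subunit, read 294 with LPS+8-Br-cAMP, 435 with LPS and 379 unstimulated. By their brightest probe sets both were lower with LPS+8-Br-cAMP than with LPS, at -0.36 and -0.57. With LPS they were at 0.22 and 0.20, but at -0.11 and -0.14 under the scaling that put them lowest. The dimmer probe sets of Atp6v1h, near the floor, disagreed in direction between LPS+8-Br-cAMP and LPS, at -0.38 and 0.59. With LPS these were at -0.98 and 0.06.

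Atp6v1d, of the central stalk, read 502 with LPS+8-Br-cAMP, 652 with LPS and 732 unstimulated, and its probe sets differed by -0.38, -1.36 and -1.03 between LPS+8-Br-cAMP and LPS. All went the same way, the dimmer ones past 2-fold. Atp6v0e, a small membrane subunit, read 2455 with LPS+8-Br-cAMP, 1742 with LPS and 2269 unstimulated, 0.50 above LPS (-0.31 with signals as deposited). Atp6ap1, an accessory protein of the pump, read 1197 with LPS+8-Br-cAMP, 1160 with LPS and 1534 unstimulated. The 6 pump genes had a median of -0.37 between LPS+8-Br-cAMP and LPS, -0.42 relative to all genes. Pump subunits outside the list, 11 of them measured, divided nearly evenly in that comparison, with 6 above 0 and 5 below. They ran from -0.98 to 0.32. Their median was 0.0062, or -0.04 relative to all genes.

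Tfeb, the transcription factor that switches on many lysosome genes, read 95.8 with LPS+8-Br-cAMP, 75.5 with LPS and 176 unstimulated. It was 2.33-fold lower with LPS, from -1.55 to -0.99 over the scalings, and 0.34 above LPS with LPS+8-Br-cAMP (-0.47 with signals as deposited). It rests on 1 dim probe set. The 6 genes with TCACGTGA in a promoter window had a median of -0.39 with LPS, against -0.31 for the 23 that had a window without it and were measured. Between LPS+8-Br-cAMP and LPS the medians were 0.02 with the element and 0.0031 without. They were -0.17 with the element and -0.51 without between LPS+8-Br-cAMP and unstimulated cells. The medians lay close together in the first 2 comparisons and further apart in the last. For each gene the last difference is the sum of the first 2, so it adds no reading of its own. In it the 6 genes ran from -0.92 for Mcoln1 to 0.77 for Gla.

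A wider list of 95 other lysosome genes, 87 of them with a probe set of their own, was read in the same way. After LPS, 84 were measured, of which 14 (16.7%) were past 2-fold below unstimulated cells and 5 (5.95%) past it above, with a median of -0.45. Over all genes the shares were 13.0% lower and 6.64% higher, so both lay near the background. Slc36a1, a lysosomal amino acid transporter, was the lowest, at 52.4 with LPS+8-Br-cAMP, 49.1 with LPS and 315 unstimulated, 6.43-fold lower with LPS. Pla2g15, a lysosomal phospholipase, read 101 with LPS+8-Br-cAMP, 128 with LPS and 531 unstimulated, 4.16-fold lower with LPS, and its second probe set differed by -1.96. Both stayed past 2-fold lower under every scaling.

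Among other enzymes Galc, the galactosylceramidase, was 3.36-fold lower with LPS (-0.46 by its second probe set), Sgsh, a heparan sulfatase, 2.30-fold and the protease Prcp 2.11-fold. In delivery to lysosomes, the sorting receptor Sort1 was 2.38-fold lower, although 0.26 higher by its second probe set, and the adaptors Gga3 and Gga2 2.30-fold and 2.03-fold. Of genes that regulate Tfeb or the nutrient-sensing kinase mTORC1, Flcn was 2.64-fold lower, with -1.36 by its second probe set, Lamtor4 2.56-fold and Fnip2 2.32-fold. The arginine transporter Slc38a9, which acts in the same pathway, was 2.64-fold lower, with -2.03 by its second probe set. The 13 related regulators measured had a median of -0.62, beside -0.21 over all genes. Past 2-fold 3 of them were lower and 1 higher, where 13.0% of all genes were lower and 6.64% higher. The remaining 9 ran from -0.77 to 0.61, and 13 genes are too few to set against these shares. Sgsh, Gga2 and Gga3 did not reach 2-fold under at least 1 other scaling.

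Genes at least 2-fold higher with LPS were Rnaset2a, a ribonuclease, by at least 4.68-fold, Cln3 by 3.56-fold, the channel Mcoln2 by 2.41-fold and the pump subunit Atp6v1e1 by 2.03-fold. The last rests on its brightest probe set, since the second differed by -0.12. Mitf, a relative of Tfeb named here after its values were seen, completed them at 2.10-fold higher, with 926 with LPS+8-Br-cAMP, 1786 with LPS and 850 unstimulated. Mcoln2, Atp6v1e1 and Mitf did not reach 2-fold under at least 1 other scaling. Of the other pump subunits 11 were measured, and their median with LPS was -0.10.

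Between LPS+8-Br-cAMP and LPS, 2 of 85 other lysosome genes were at least 2-fold higher (2.35%, against 6.49% of all genes) and 5 lower (5.88%, against 5.81%), with a median of -0.09. Litaf, a membrane protein of late endosomes and lysosomes, read 4746 with LPS+8-Br-cAMP, 1785 with LPS and 2141 unstimulated, 2.66-fold above LPS and 1.31 by its second probe set. Mcoln2 read 625 with LPS+8-Br-cAMP, 265 with LPS and 110 unstimulated, 2.36-fold above LPS. Gga1 was 2.85-fold lower than with LPS but 0.62 higher by its second probe set. Clcn7, a chloride transporter of lysosomes, was 2.65-fold lower, Cln3 2.21-fold, the mannose 6-phosphate receptor Igf2r 2.05-fold and the heparan sulfate enzyme Naglu 2.01-fold. The second probe sets of Clcn7, Cln3 and Igf2r were lower as well, at -0.68, -0.90 and -0.43. Litaf, Mcoln2, Naglu and Igf2r did not reach 2-fold under at least 1 other scaling. Against unstimulated cells, 26 of 85 were at least 2-fold lower with LPS+8-Br-cAMP (30.6%, against 15.8% of all genes) and 4 higher (4.71%, against 9.36%), with a median of -0.53. Under quantile normalization the count lower was 20 of 85, beside 1637 of 12818 over all genes. With signals as deposited it was 66 of 84, beside 6125 of 11426 over all genes.

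**Figure D4:**
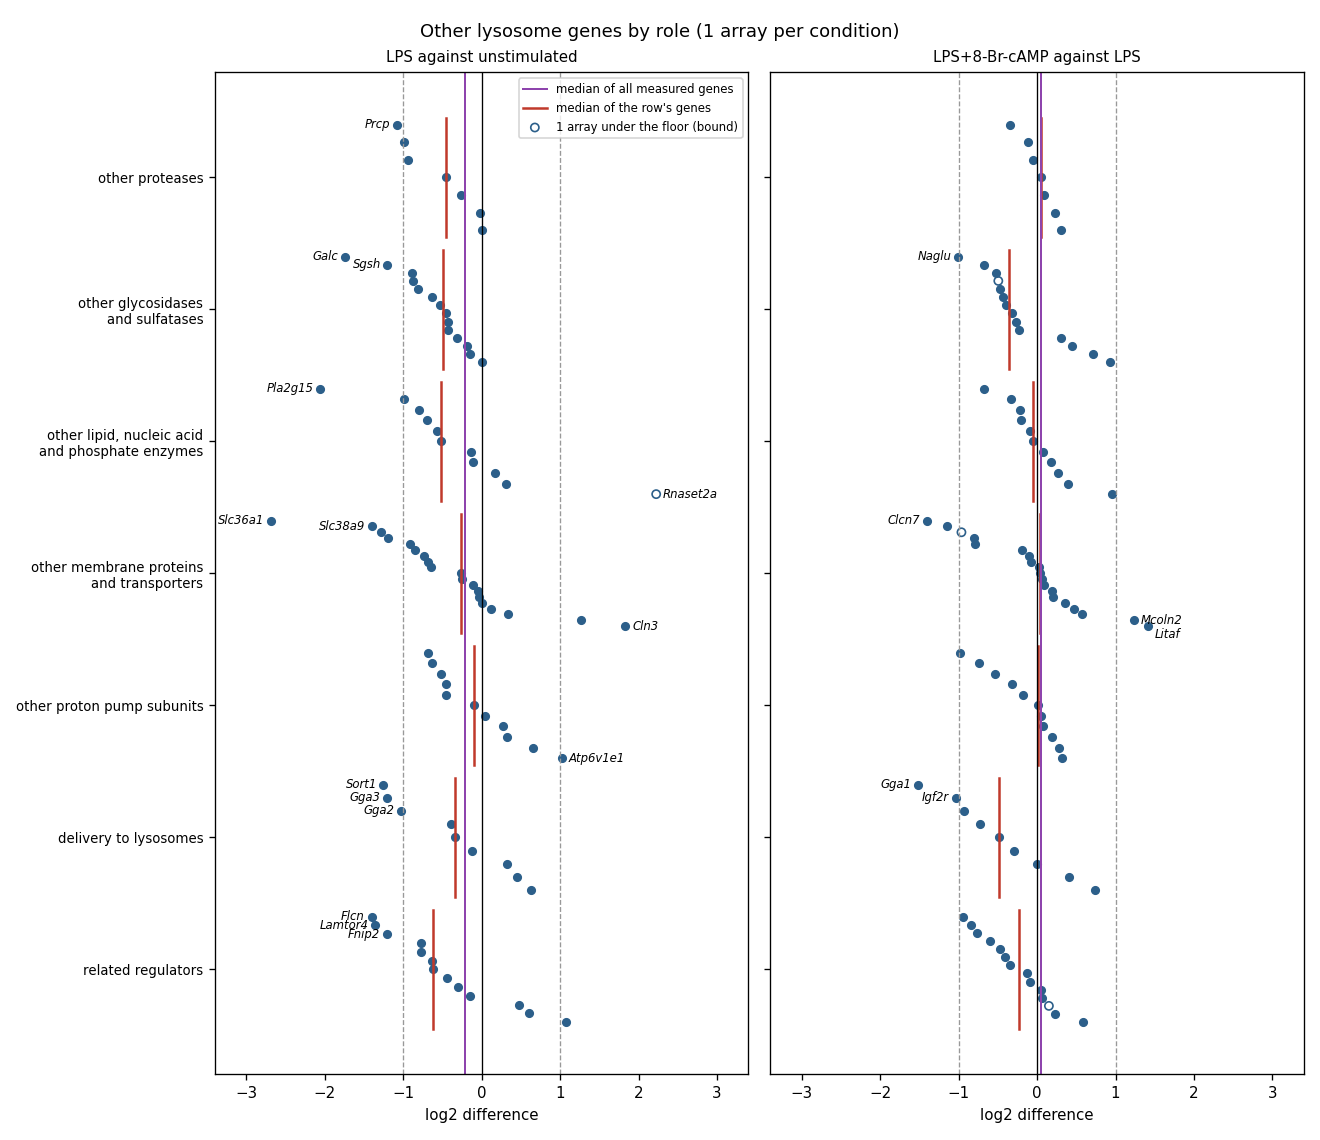
Log2 difference (horizontal axis) of other lysosome genes in 7 role groups with LPS against unstimulated cells and with LPS+8-Br-cAMP against LPS, a point per gene, open where an array was under the floor, with named genes labelled. Row medians lie left of the median of all genes in 6 of the 7 rows with LPS, the exception being the other proton pump subunits.

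Probe sets of a gene agreed in direction more often than not. In 17 of 22 lysosome genes with a second probe set measured, it had the sign of the brightest with LPS against unstimulated cells, between LPS+8-Br-cAMP and LPS in 15 of 22, and between LPS+8-Br-cAMP and unstimulated cells in 17 of 22. The 2 readings differed by over 1 unit in 3 genes with LPS (Ctsc, Man2b1 and Atp6v1h), in 1 between LPS+8-Br-cAMP and LPS (Ctsc) and in 2 between LPS+8-Br-cAMP and unstimulated cells (Man2b1 and Ctsc). Another 13 genes have 1 probe set, Manba, Tfeb, Glb1, Ctsk, Cd68 and Npc1 among them.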

How the data were processed

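The authors deposited linear intensity values per probe set of Affymetrix Mouse 430 2.0 arrays, with MAS5 as the tool per the submitters' processing notes. Version and settings: not given in the sources used here. Columns were matched to conditions by sample label. Of 45101 probe sets, 64 controls were left out. The platform annotation gave 1 gene for 34945, several for 932 and none for 9160.

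Each array was multiplied to a common mean after trimming 2% at each end, signals under the highest array median (32.5) were raised to that value, and values were log2 transformed. Each gene was read by its brightest single-gene probe set, counted as measured in a comparison when above the floor on at least 1 of its arrays, and called at 2-fold. The error of 1 probe set is the SD of the difference between the log2 differences of a gene's 2 brightest probe sets above the floor, divided by the square root of 2. With 1 array per condition no test was run. Steps were tested on simulated data. All 36 lysosome genes are named, and of each other list up to 3 genes past 2-fold with the largest difference in each of the first 2 comparisons, and Atp6v0d1 as the paralog of Atp6v0d2. Members and lists were chosen with earlier results of these data known. Protein sequences were not used here. Python 3.11.15, pandas 2.3.3 and numpy 2.4.6 were used.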

Additional observations from a re-analysis of the deposited data

How the results depend on the processing

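Alternatives were 4 other scalings, 2 other floors, a pseudocount, 2 other uses of probe sets and 2 other thresholds. Leaving out an array was not possible with 1 per condition. No paired analysis was possible because each condition has 1 array. The median of all genes moved with the scaling, from -0.51 to -0.11 with LPS, from -0.65 to 0.16 between LPS+8-Br-cAMP and LPS and from -1.08 to -0.04 between LPS+8-Br-cAMP and unstimulated cells. Relative to it the median of the lysosome genes stayed below 0 under every scaling, from -0.51 to -0.17, from -0.23 to -0.09 and from -0.65 to -0.31 in the same order of comparisons. Over all alternatives that give a median these ranges were -0.51 to -0.14, -0.30 to -0.09 and -0.65 to -0.26. Apart from quantile normalization, the scalings differ only in 1 factor per array, which moves both medians alike except at the floor. They could therefore hardly change the gap between the medians. Under quantile normalization, which could, the gap was -0.51, -0.21 and -0.65. Unadjusted, the median between LPS+8-Br-cAMP and LPS turned to 0.064 under spike scaling and was -0.88 with signals as deposited, which keep the dimness of the LPS+8-Br-cAMP array. That against unstimulated cells was -1.52 as deposited.

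With LPS the count at least 2-fold lower, 4, became 8 under spike scaling, 7 as deposited, 2 with a pseudocount, 10 at 1.5-fold and 0 at 3-fold, and the count higher, 0, became 1 by the mean over probe sets. Between LPS+8-Br-cAMP and LPS the count higher, 1, became 0 under quantile normalization, median scaling, as deposited, by the mean over probe sets, with only plain _at probe sets and at 3-fold, and 3 at 1.5-fold. The count lower, 1, became 0 under quantile normalization, spike scaling, with a pseudocount and at 3-fold, 13 as deposited and 4 at 1.5-fold. Between LPS+8-Br-cAMP and unstimulated cells the count higher, 2, became 0 under quantile normalization, as deposited and at 3-fold, and 1 under spike scaling, by the mean over probe sets and with plain _at probe sets. The count lower, 5, became 8 under quantile normalization, 9 under spike scaling, 29 as deposited, 8 with plain _at probe sets, 13 at 1.5-fold and 2 at 3-fold. Counts lower over all genes moved too. With LPS they were 1597 of 12283, but 2824 of 11788 under spike scaling and 2618 of 11871 as deposited. Between LPS+8-Br-cAMP and LPS they were 730 of 12572, but 2882 of 10302 as deposited. Against unstimulated cells LPS+8-Br-cAMP gave 2018 of 12793, but 1637 of 12818 under quantile normalization. It gave 2636 of 12434 under spike scaling and 6125 of 11426 as deposited. As deposited, counts higher over all genes went from 815, 816 and 1198 to 555, 93 and 286 in the same order of comparisons. The cause of these moves was not tested. No gene of the 35 changed sign in any setting in a comparison where it was past 2-fold by the main processing. Some of these genes, such as Glb1 and Tfeb, did change sign in another comparison.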
